A study of Mus musculus with 2 samples.

Results

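Type I interferon response genes are the genes that a cell switches on after an interferon alpha or beta molecule binds its receptor. The set described here holds 35 mouse genes, picked by symbol from 56893 named genes in the files, and all 35 were found with 1 identifier each. They fall into signal transducers, sensors of foreign or misplaced nucleic acid, a ubiquitin-like modifier and its protease, the IFIT and OAS families, other antiviral effectors and other induced genes.

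Type I interferon binds a receptor made of IFNAR1 and IFNAR2, and the kinases JAK1 and TYK2 then pass the signal to STAT2. STAT2 joins IRF9 in a complex that binds the interferon-stimulated response element (ISRE) in the promoters of induced genes. In bone, interferon beta made by the osteoclast lineage is known from mouse work to restrain osteoclast formation, and marrow blood cells carry the receptor.

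The study measured single cells of alveolar bone, the jaw bone that holds the teeth, during orthodontic tooth movement. Its force group was healthy C57BL/6J mice aged 6 to 8 weeks with a coil spring pulling the maxillary right first molar at 25 g, and its control group had the spring without force. On day 7, bone within 1 mm of the socket was pooled from 6 of 12 mice per group, digested for 60 min and freed of red cells by lysis. The 2 libraries, called library 1 and library 2 here, are not tied to force or control by the labels, so neither can be called treated and every ratio between them describes these 2 pools only, with no replicate and no test.

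Library 1 held 77572847 UMIs (unique molecular identifiers, each marking 1 captured RNA molecule) of named genes and 9458 cells with a median of 3224.5 UMIs. Library 2 held 116775367 UMIs and 11814 cells with a median of 4378 UMIs. Cells fell into 28 clusters and 23 classes, of which 21 took a name from fixed marker genes and 2 stayed unnamed. Members of the interferon set and of the related lists were kept out of the genes used for clustering. The bone origin showed in Bglap, the osteocalcin gene, at 52177 CPM (UMIs of a gene scaled to 1000000 UMIs of its class) in osteoblast-like cells of library 1 and 56783 CPM in library 2. The macrophage-like class was led by C1qc, C1qa and C1qb, and the plasmacytoid dendritic class carried all 7 of its fixed markers, Siglech and Ccr9 among them. Barcodes that were called cells in both libraries numbered 70. Intervals below are 95% exact Poisson (levels) or Clopper-Pearson (shares) intervals and cover counting error only.

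The ISRE core, searched on both strands as TTTC, any 2 bases and TTTC, lay in the promoter windows of 15 of the 24 members that had a RefSeq window, 62.5%. A window runs from 250 bases before to 50 bases after a gene's start, and 3.99% of 27025 genes with a window held the same letters. The gamma-activated sequence, searched as TTC, any 3 bases and GAA, was in 4 of the 24, 16.7%, against 9.55% of all genes. The 150 bases before the start of 5 members are printed to show these letters in genes whose levels are described below, with ISRE core matches in capitals (RefSeq, build GRCm38.p6, each read on the gene's own strand):
Rsad2, chr12:26456453-26456602, minus strand: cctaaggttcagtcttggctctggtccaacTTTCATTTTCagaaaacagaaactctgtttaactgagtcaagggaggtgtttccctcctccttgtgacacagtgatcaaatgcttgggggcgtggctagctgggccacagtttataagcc
Isg15, chr4:156200819-156200968, minus strand: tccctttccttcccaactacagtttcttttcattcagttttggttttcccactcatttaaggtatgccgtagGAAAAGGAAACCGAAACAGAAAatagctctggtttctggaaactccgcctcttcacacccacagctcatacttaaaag
Ifit1, chr19:34640739-34640888, plus strand: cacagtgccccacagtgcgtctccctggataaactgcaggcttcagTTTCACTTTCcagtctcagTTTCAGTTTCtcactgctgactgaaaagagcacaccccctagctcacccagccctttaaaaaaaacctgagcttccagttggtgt
Bst2, chr8:71537473-71537622, minus strand: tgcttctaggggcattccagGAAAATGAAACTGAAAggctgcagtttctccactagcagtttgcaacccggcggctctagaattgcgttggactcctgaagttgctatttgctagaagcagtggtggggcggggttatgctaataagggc
Oasl1, chr5:114923090-114923239, plus strand: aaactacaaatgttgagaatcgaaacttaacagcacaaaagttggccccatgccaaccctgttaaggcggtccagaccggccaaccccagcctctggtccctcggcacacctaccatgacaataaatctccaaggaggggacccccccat
Rsad2 had 1 match, Ifit1 had 2 separate matches and Isg15 had 3 overlapping ones. Bst2 had 2 overlapping matches, and those of Isg15 and Bst2 lay on the strand opposite to the gene. Oasl1 had none in its window, which says only that these letters are not there. Ifit2, Irf7, Irf9, Oasl2, Cmpk2, Ifi44, Isg20 and Xaf1 also had none, while Stat2, Ifih1, Ifi207, Ifit3, Ifit3b, Oas1a, Oas1g, Oas3, Slfn5, Slfn8 and Trim30a had at least 1.

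Macrophage-like cells, plasmacytoid dendritic cells and monocyte-like cells carried the set at the highest summed level of the 23 classes in both libraries. Summed over the 35 members, macrophage-like cells held 34191 CPM (33824 to 34561; 122 cells) in library 1 and 8386 CPM (8226 to 8548; 185 cells) in library 2. Plasmacytoid dendritic cell-like cells, the blood cell type known for making large amounts of interferon alpha, held 18969 CPM (18510 to 19436; 70 cells) in library 1 and 9567 CPM (9391 to 9746; 222 cells) in library 2. In library 1 the macrophage-like class stood first and in library 2 the plasmacytoid dendritic class did. When each library was clustered by itself, the plasmacytoid dendritic class of library 1 took in 215 cells and held 9239 CPM, below the 9459 CPM of library 2. Those 215 cells were all 70 cells of the joint class, 129 cells of the joint stem and progenitor-like class, 10 monocyte-like and 6 granulocyte-monocyte progenitor-like cells. In library 2 all 222 cells of the joint class were together in both clusterings. Values under separate clustering below are those of this wider class in library 1. Monocyte-like cells followed at 18059 CPM in library 1 and 8379 CPM in library 2, and the library 2 value lies within the counting interval of the macrophage-like class. Mature neutrophil-like cells followed in both, at 9917 CPM in library 1 and 5582 CPM in library 2.

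Bone-forming cells lay at the low end. Osteoblast-like cells held 1264 CPM (1238 to 1290) in library 1, the lowest of the 23 classes there, and 1153 CPM (1124 to 1182) in library 2. Megakaryocyte-like cells, the source of platelets, were lowest in library 2 at 1001 CPM, beside 2457 CPM in library 1. The unnamed cluster led by Spp1, Megf10 and Enpp1 held 1560 CPM in library 1 and 1337 CPM in library 2. Over all cells the sum was 5548 CPM in library 1 and 2894 CPM in library 2. Barcodes with at most 100 UMIs, far below the limit for a cell, gave sums close to these, 5346 CPM in library 1 and 2847 CPM in library 2. In some classes 1 cell weighed heavily. One cell held 57.4% of the member UMIs of Schwann cell-like cells in library 1 and 24.0% in library 2, 15.4% of those of osteoclast-like cells in library 1 and 16.3% in library 2, and 17.1% of those of megakaryocyte-like cells in library 1. Of the member UMIs of endothelial cell-like cells, 1 cell held 11.5% in library 1 and 2.08% in library 2.

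**Figure D1:**
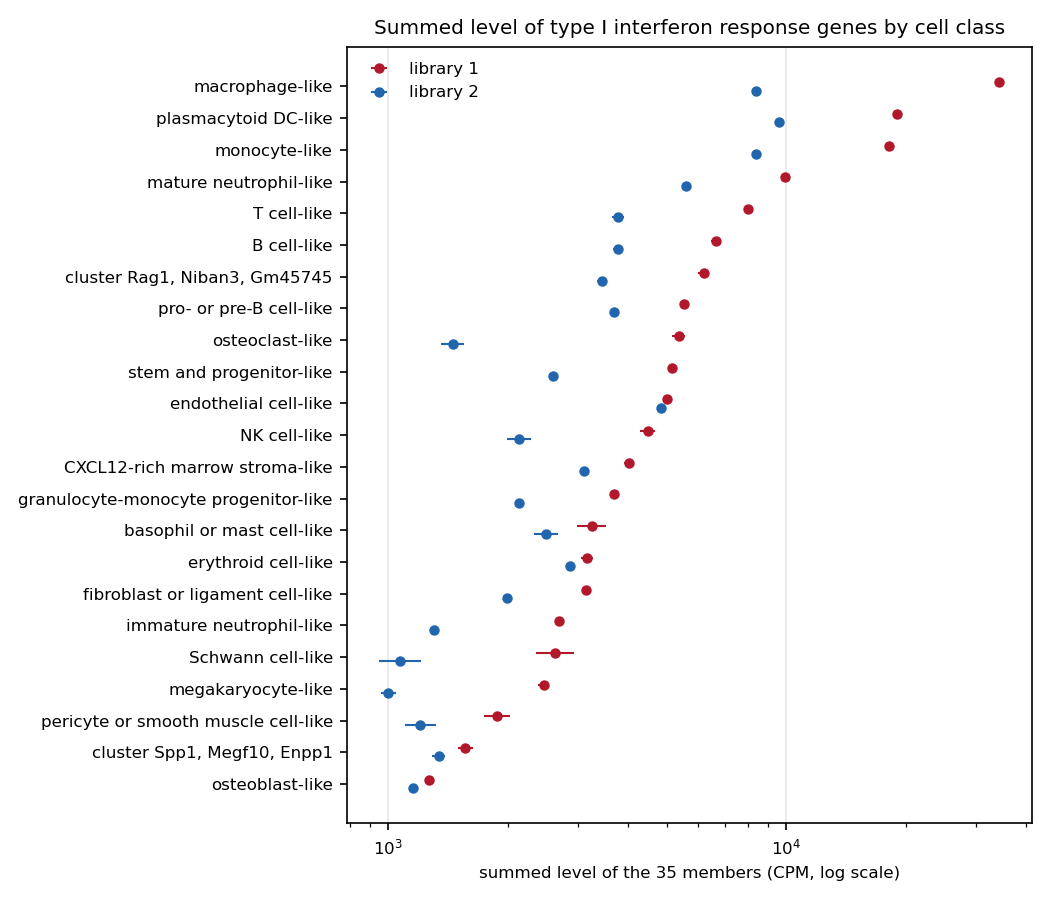
Summed level of the 35 members in each of 23 cell classes, as CPM on a log scale, for library 1 (red) and library 2 (blue), with 95% exact Poisson intervals. Macrophage-like cells stand at 34191 in library 1 and 8386 in library 2, while endothelial cell-like and osteoblast-like cells have both libraries close together.

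Each member was also ranked over the 23 classes by its own level. The highest class was the same in both libraries for 19 of 35 members, a share of the set near the 54.7% of 13926 measured genes for which this held. A lead of at least 2-fold over the remaining classes, seen in both libraries, was held by 6 of 35 members, beside 11.4% of all measured genes. By class, 6 members were highest in macrophage-like cells in both libraries, beside 2.15% of all genes, and 9 in plasmacytoid dendritic cell-like cells, beside 3.17%. In library 1 alone macrophage-like cells were highest for 17 members (3.4% of all genes), and in library 2 for 6 (3.99%). Plasmacytoid dendritic cell-like cells were highest for 11 members in library 1 (6.25%) and for 10 in library 2 (5.64%). With each library clustered by itself, the count highest in the plasmacytoid dendritic class in both libraries was 3 in place of 9. Library 1 levels of single members in this class also fell under alternative cell calls, doublet removal or clustering. The lowest was 0.351 of the reported level for Usp18, 0.317 for Slfn5 and 0.590 for Ly6e. It was 0.433 for Ifi44, 0.450 for Mx2 and 0.545 for Trim30a.

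The 3 signal transducers were all highest in plasmacytoid dendritic cell-like cells. Stat2, which joins IRF9 in the ISRE-binding complex, had 750 CPM there in library 1 and 242 CPM in library 2, and in both libraries this was over 2-fold above the next class. Irf7, the factor that drives interferon alpha genes, had 773 CPM in library 1 and 337 CPM in library 2, with macrophage-like cells next at 551 CPM in library 1 and monocyte-like cells next at 276 CPM in library 2. Irf9, the DNA-binding partner of the complex, had 293 CPM in library 1 and 159 CPM in library 2, and its lead over the next class was not beyond counting error in both libraries. Over the 215 cells of the separately clustered class of library 1 the levels were 339 CPM for Stat2 and 285 CPM for Irf7.

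Of the nucleic acid sensors, Ifih1, which encodes the double-stranded RNA sensor MDA5, marked macrophage-like cells most. Its level there was 1120 CPM in library 1 and 375 CPM in library 2, against 285 CPM in monocyte-like cells of library 1 and 92.2 CPM in endothelial cell-like cells of library 2, the next classes. Ifi207, of the family of interferon-inducible DNA-binding proteins, had 1993 CPM in macrophage-like cells of library 1 and 1067 CPM in those of library 2, with monocyte-like cells next at 1301 CPM in library 1 and 679 CPM in library 2. Dhx58, which encodes the regulator LGP2, was highest there too, at 129 CPM in library 1 and 37.7 CPM in library 2. Zbp1, a sensor of Z-form nucleic acid, was highest in monocyte-like cells, at 271 CPM in library 1 and 108 CPM in library 2. Ifi204, a paralog of Ifi207 that may share reads with it, had no shared highest class: 1216 CPM in macrophage-like cells of library 1 and 341 CPM in monocyte-like cells of library 2.

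Isg15, the ubiquitin-like modifier, changed its highest class between the libraries. It was highest in macrophage-like cells of library 1 at 2516 CPM (2417 to 2618), and in erythroid cell-like cells of library 2 at 501 CPM (483 to 520), where macrophage-like cells followed at 312 CPM. Usp18, the protease that removes ISG15 and dampens the receptor, was highest in the jointly clustered plasmacytoid dendritic class. It had 790 CPM there in library 1 and 106 CPM in library 2.

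The IFIT genes, whose proteins bind viral RNA and hinder its translation, were all highest in macrophage-like cells of library 1. Ifit2 had 1342 CPM (1270 to 1417) in library 1 and 131 CPM (112 to 153) in library 2, over 3-fold above the next class in each, and with the top 10% of doublet scores removed its library 2 level was 41.1 CPM. Ifit1 had 2456 CPM there in library 1, while in library 2 CXCL12-rich marrow stroma-like cells were highest at 306 CPM and macrophage-like cells followed at 205 CPM. Ifit3 had the same order, with 1566 CPM in macrophage-like cells of library 1, and 211 CPM in the stroma-like and 114 CPM in the macrophage-like cells of library 2. Its near-copy Ifit3b had 496 CPM in macrophage-like cells of library 1 and 34.5 CPM in those of library 2, and reads may be split between the pair.

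Among the OAS genes, Oasl1, whose protein is known in mice to hold back Irf7 translation, stood out in macrophage-like cells. It had 2871 CPM (2765 to 2979) in library 1, 7.0-fold above monocyte-like cells, and 557 CPM (516 to 600) in library 2, 2.62-fold above osteoclast-like cells. Oas3 and Oasl2, in contrast, were highest in mature neutrophil-like cells. Oas3, which makes the 2′-5′ linked oligoadenylates that activate RNase L, had 214 CPM in library 1 and 176 CPM in library 2, and in library 1 its lead over monocyte-like cells, at 210 CPM, was within counting error. Oasl2 had 501 CPM in library 1 and 320 CPM in library 2, and in library 1 macrophage-like cells were close at 460 CPM. Oas1a, Oas1g and Oas2 had no shared highest class and moved between macrophage-like, monocyte-like and mature neutrophil-like cells, at 42.9 to 179 CPM in library 1 and 36.7 to 97.0 CPM in library 2.

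The other effectors split between the same classes. Rsad2, which encodes viperin, had 7395 CPM (7225 to 7568) in macrophage-like cells of library 1 and 647 CPM in those of library 2. In library 2 erythroid cell-like cells were level with them at 655 CPM (634 to 677). The 8 macrophage markers summed to 38.9 CPM in erythroid cell-like cells of library 1 and 8.24 CPM in those of library 2. In macrophage-like cells they summed to 9481 CPM in library 1 and 10121 CPM in library 2. Of the 8, 1 was at 0 in erythroid cell-like cells of each library. Barcodes with at most 100 UMIs had 483 CPM of Rsad2 in library 1 and 112 CPM in library 2. The part of RNA from other cells in the erythroid level was not tested. Cmpk2, the neighbour of Rsad2 on chromosome 12 and a mitochondrial nucleotide kinase, had the same pair of classes, with 1131 CPM in macrophage-like cells of library 1, and 80.4 CPM in erythroid cell-like and 73.9 CPM in macrophage-like cells of library 2. Bst2, which encodes tetherin and is also the plasmacytoid dendritic cell antigen PDCA-1 in mice, had 3291 CPM in plasmacytoid dendritic cell-like cells of library 1 and 3139 CPM in those of library 2. The next class, macrophage-like cells, had 722 CPM in library 1 and 445 CPM in library 2. Mx1, a GTPase that blocks influenza virus and is known to be disrupted in C57BL/6 mice, was also highest in plasmacytoid dendritic cell-like cells, at 905 CPM in library 1 and 111 CPM in library 2. Over the 215 cells of the separately clustered class of library 1, Bst2 stood at 1139 CPM and Mx1 at 327 CPM. Trim30a, a ubiquitin ligase, had 1130 CPM in the jointly clustered class in library 1 and 548 CPM in library 2.

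Isg20, an RNA exonuclease, was highest in erythroid cell-like cells, at 242 CPM in library 1 and 400 CPM in library 2. Slfn5, a Schlafen family gene, reached 1356 CPM in plasmacytoid dendritic cell-like cells of library 1, and in library 2 it was highest in endothelial cell-like cells at 621 CPM, 3.25-fold above the next class. Parp14, an ADP-ribosyltransferase, had 647 CPM in macrophage-like cells of library 1 and 194 CPM in endothelial cell-like cells of library 2. Slfn8 had 405 CPM in macrophage-like cells of library 1 and 147 CPM in plasmacytoid dendritic cell-like cells of library 2. Mx2 had 252 CPM in plasmacytoid dendritic cell-like cells of library 1 and 62.2 CPM in CXCL12-rich marrow stroma-like cells of library 2.

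Among the other induced genes, Ly6e, a membrane-anchored protein that limits coronavirus entry, was highest in the jointly clustered plasmacytoid dendritic class. It had 2105 CPM there in library 1 and 2710 CPM in library 2. Ifi44 had 574 CPM in the same class of library 1 and 135 CPM in library 2. Ifi27l2a was highest in osteoclast-like cells of library 1 at 1832 CPM and in monocyte-like cells of library 2 at 2273 CPM. That osteoclast-like class had 49 cells, and 1 of them held 15.4% of its member UMIs. Rtp4 had 822 CPM in macrophage-like cells of library 1 and 434 CPM in mature neutrophil-like cells of library 2. Xaf1 had 284 CPM in macrophage-like cells of library 1 and 133 CPM in fibroblast or periodontal ligament cell-like cells of library 2.

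**Figure D2:**
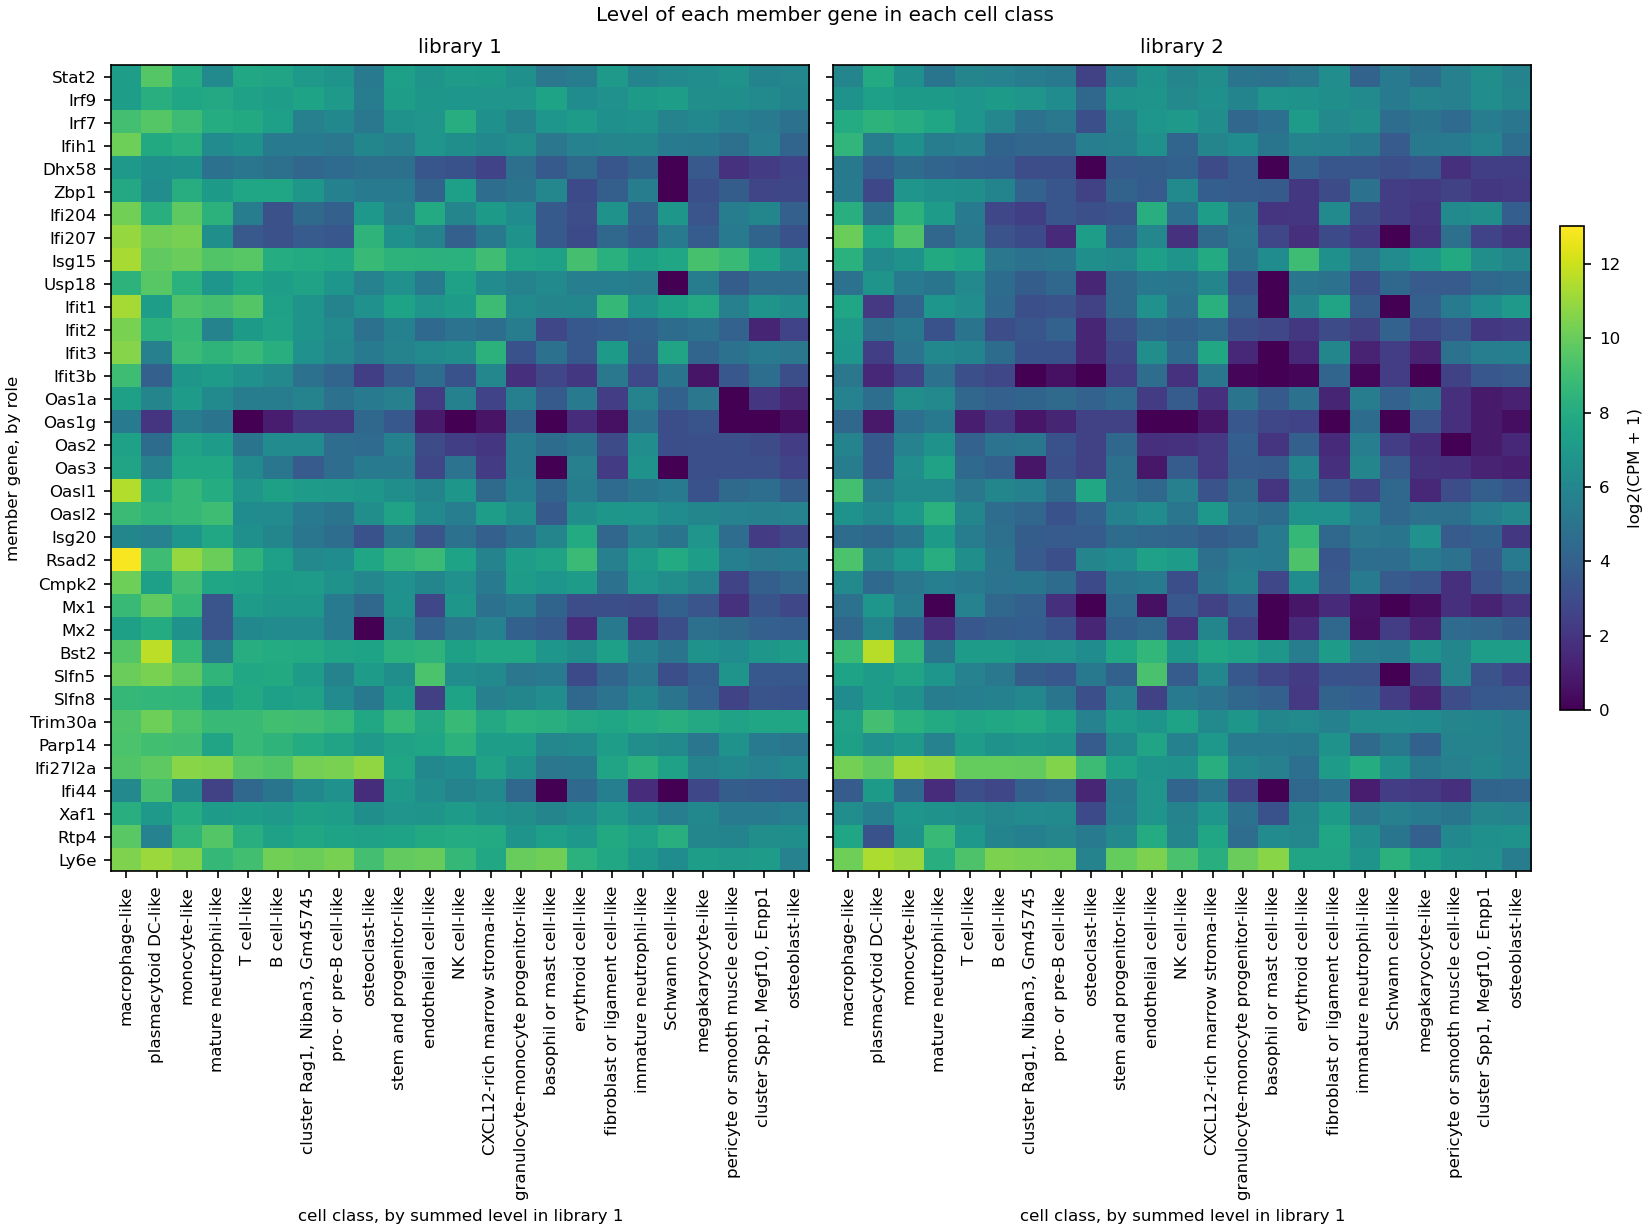
Level of each of the 35 members (down the page, by role) in each of 23 cell classes (across, by summed level in library 1) in library 1 (left) and library 2 (right), as log2(CPM + 1). Bst2 in plasmacytoid dendritic cell-like cells (3291 in library 1, 3139 in library 2) is bright in both panels, while Rsad2 in macrophage-like cells (7395 in library 1, 647 in library 2) is brighter on the left.

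Nearly the whole set was higher in library 1. Over all cells, 22 of 35 members were at least 2-fold higher in library 1 than in library 2, beside 4.85% of 17910 measured genes. None of the 35 was at least 2-fold lower, beside 2.07% of all genes, and 34 of 35 ratios lay above 1. The median log2 ratio of the members was 1.24, beside 0.05 for all measured genes. Ratios over all cells also carry the mix of classes, which differed between the libraries. Mature neutrophil-like cells were 22.6% of cells in library 1 and 11.1% in library 2, and erythroid cell-like cells 1.95% and 7.42%. The part of this mix in the ratios over all cells was not tested. Ifit2 had 81.9 CPM in library 1 and 11.7 CPM in library 2, a log2 ratio of 2.81 (2.71 to 2.91), and Mx1 had 60.9 CPM in library 1 and 8.74 CPM in library 2, a log2 ratio of 2.80 (2.68 to 2.92). Rsad2 had 490 CPM in library 1 and 109 CPM in library 2, and Isg15 had 399 CPM in library 1 and 119 CPM in library 2.

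A few members did not follow over all cells. Ly6e had 524 CPM in library 1 and 621 CPM in library 2, the only log2 ratio below 0 at -0.24 (-0.27 to -0.22). Bst2 had 197 CPM in library 1 and 196 CPM in library 2, Isg20 had 57.6 CPM in library 1 and 55.2 CPM in library 2, and Ifi27l2a had 492 CPM in library 1 and 428 CPM in library 2. Class by class, Isg20 was higher in library 1 in 14 of 17 measured classes and Bst2 in 17 of 22. For Ifi27l2a this held in 11 of 22 classes and for Ly6e in 10 of 23. The signal transducers Irf9 and Irf7 had log2 ratios of 0.56 and 0.65, below the median of the set.

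Within classes the size of this difference was uneven. In macrophage-like cells 30 of 35 members were at least 2-fold higher in library 1, beside 5.14% of measured genes, with a median log2 ratio of 2.10 beside -0.20 for all genes. In plasmacytoid dendritic cell-like cells this held for 24 of 28 measured members (4.2% of genes), and in monocyte-like cells for 27 of 35 (4.59%). The value for plasmacytoid dendritic cells is that of the 70 jointly clustered cells of library 1. In mature neutrophil-like cells it held for 17 of 34, beside 9.09% of genes, and there the median of all genes was itself shifted by 0.24. In granulocyte-monocyte progenitor-like cells it held for 26 of 34, beside 4.6% of genes.

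In macrophage-like cells, Mx1 had 439 CPM in library 1 and 28.1 CPM in library 2, a ratio of 15.6 (11.1 to 22). Rsad2 had a ratio of 11.4 (10.6 to 12.3) there and Ifit1 one of 12 (10.5 to 13.6). Ifi27l2a ran the other way in these cells, with 717 CPM in library 1 and 1247 CPM in library 2, a ratio of 0.575 (0.526 to 0.629). In monocyte-like cells the log2 ratio reached 5.25 for Ifit1 and was -0.48 for Ifi27l2a and -0.46 for Ly6e.

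Endothelial, osteoblast-like and erythroid classes had the libraries close together, and osteoclast-like cells did not. In endothelial cell-like cells 4 of 29 measured members were at least 2-fold higher in library 1, beside 3.69% of genes, and the median log2 ratio was 0.01 beside 0.04 for all genes. The 4 were Oasl1, Rsad2, Trim30a and Isg15. Endothelial cell-like cells of library 1 had 58.2 CPM of Oasl1, 463 of Rsad2, 232 of Trim30a and 331 of Isg15. Barcodes with at most 100 UMIs in library 1 had 141, 483, 405 and 373 CPM, in the same order. In library 2 such barcodes had less of each, and Rsad2 and Isg15 lay below their endothelial levels there. The part of RNA from other cells in the ratios within classes was not tested. Slfn5, high in endothelial cell-like cells, had 647 CPM in library 1 and 621 CPM in library 2. In osteoblast-like cells it was 5 of 32, beside 3.8% of genes, with a median of 0.08, and in the cluster led by Spp1, Megf10 and Enpp1 4 of 22, beside 2.74%, with a median of -0.15. In osteoclast-like cells it was 14 of 16, beside 7.61% of genes, with a median of 2.08. Their sum had a ratio of 3.69 (3.42 to 3.98) over 49 cells in library 1 and 38 in library 2. Weighting these cells equally gave sums of 3542 CPM in library 1 and 1488 CPM in library 2. When thinned to equal depth as described below, osteoclast-like cells had a median of 1 member in both libraries. At least 5 members were found in 6 of 43 thinned osteoclast-like cells of library 1 and 0 of 30 of library 2. In erythroid cell-like cells 2 of 24 members were at least 2-fold higher in library 1, beside 35.8% of genes. There the median of the members, 0.38, lay below that of all genes, 0.78. All 23 classes had a higher sum in library 1, with ratios of 1.04 in endothelial cell-like cells to 4.08 (3.99 to 4.17) in macrophage-like cells and a median of 1.78. With cells weighted equally, endothelial cell-like cells had 4406 CPM in library 1 and 4720 CPM in library 2.

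**Figure D3:**
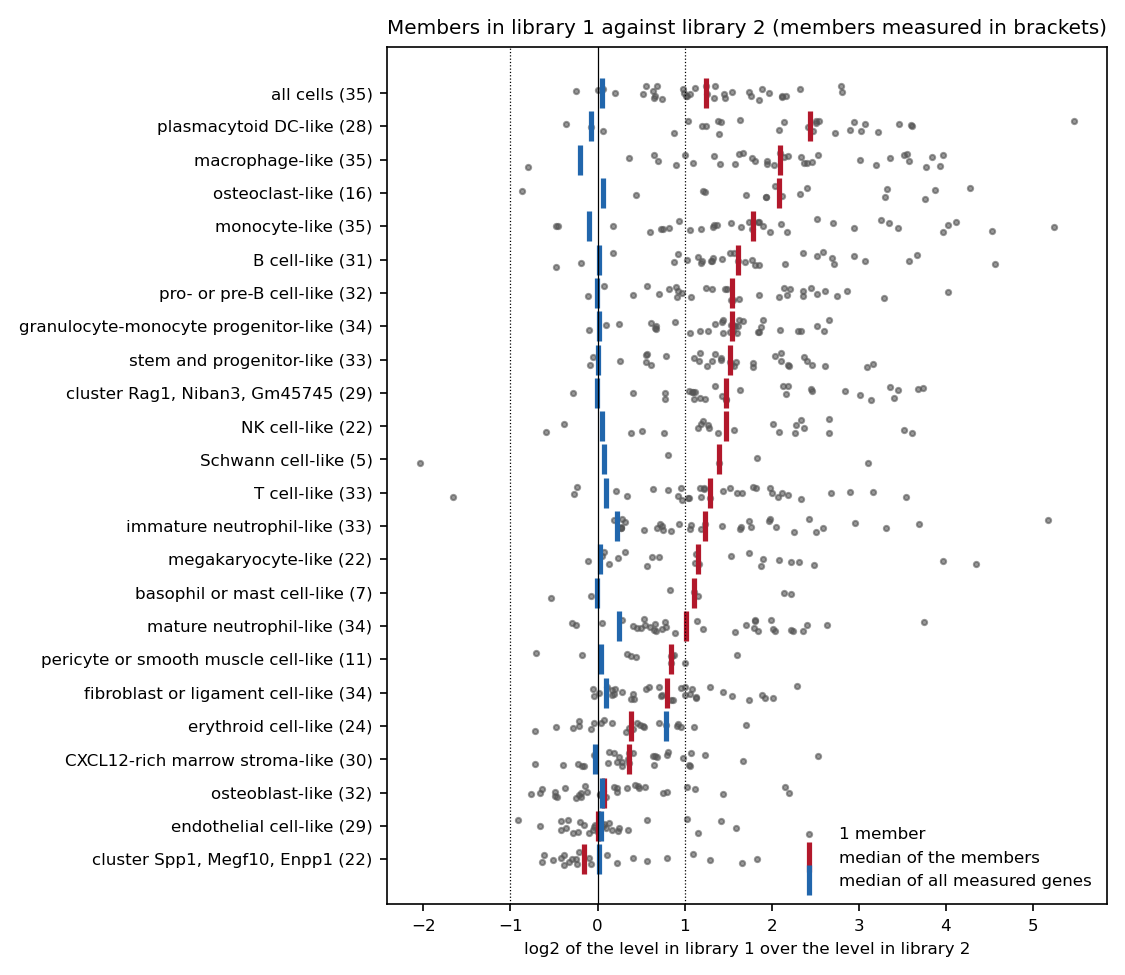
Log2 of the level in library 1 over that in library 2 for each measured member (grey points, number in brackets), with the median of the members (red) and of all measured genes (blue), over all cells and in each of 23 classes. A member with 0 UMIs in 1 library is drawn at the bound set by 3 UMIs, dotted lines mark 2-fold, and the red median is 2.10 in macrophage-like cells and 0.01 in endothelial cell-like cells.

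The number of different members per cell tells whether a high sum comes from many cells or few. Each cell was thinned to 1000 UMIs to make depths equal, and cells with fewer were left out. At least 5 different members were found in 89.7% (82.8 to 94.6) of 117 macrophage-like cells of library 1 and in 45.4% (38.1 to 52.9) of 185 in library 2. Without thinning the shares were 96.7% in library 1 and 89.7% in library 2. In plasmacytoid dendritic cell-like cells the thinned shares were 80.0% in library 1 and 41.4% in library 2, with 50.7% in library 1 and 42.1% in library 2 under separate clustering. In monocyte-like cells they were 74.4% in library 1 and 50.6% in library 2. Mature neutrophil-like cells had 51.5% in library 1 and 29.8% in library 2. In endothelial cell-like cells library 1 had 21.7% (17.1 to 26.8) and library 2 had 25.8% (22.3 to 29.5), and the intervals overlap. Osteoblast-like cells gave 1.95% in library 1 and 2.33% in library 2.

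**Figure D4:**
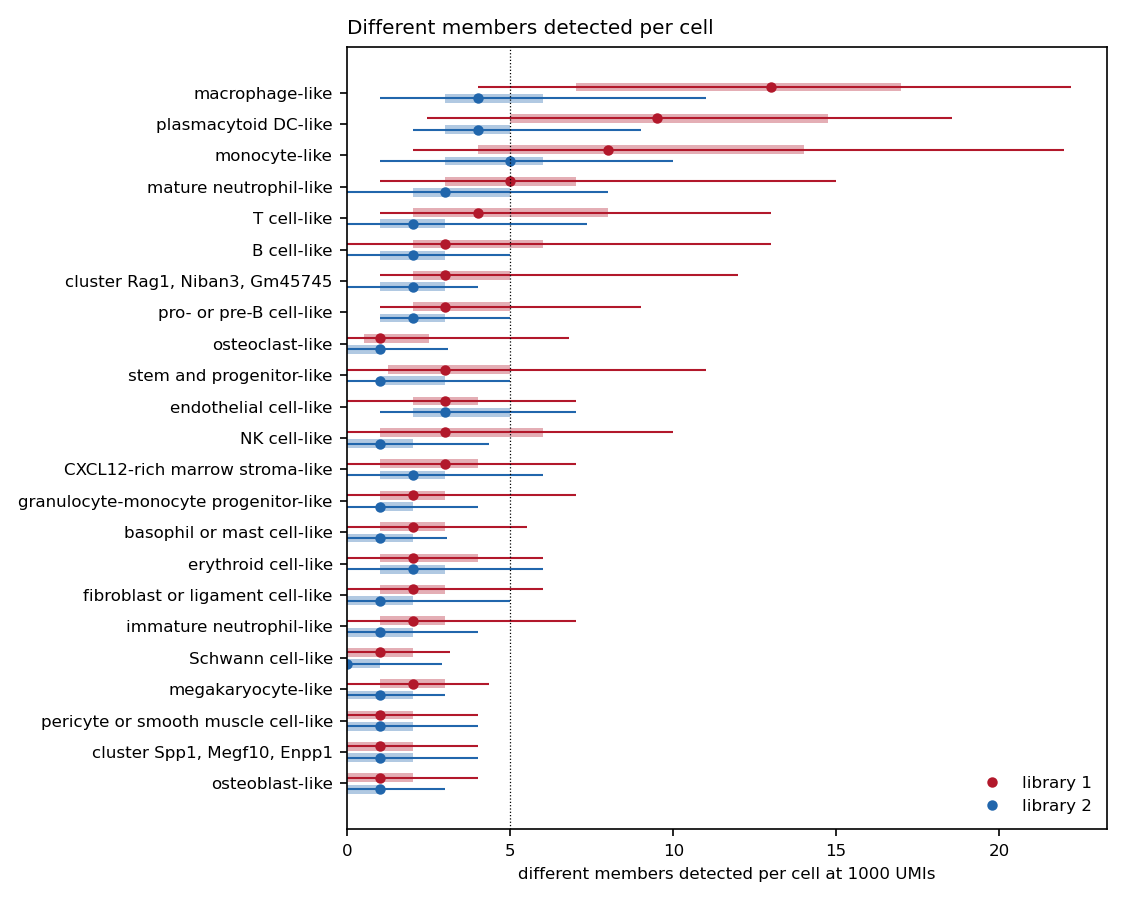
Number of different members detected per cell after thinning each cell to 1000 UMIs, by class, for library 1 (red) and library 2 (blue), with point, box and line giving the median, the quartiles and the 5th to 95th percentile, and the dotted line at 5 members. The median was 13 in macrophage-like cells of library 1 and 4 in those of library 2, and 1 in osteoblast-like cells of both.

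Some members varied more between cells of a class than counting gives. The variance over the mean, 1 for pure counting, was at least 1.5 in both libraries for 8 of 19 measured members in macrophage-like cells, beside 19.6% of genes. These were Ifih1, Isg15, Ifit1, Ifit2, Ifit3, Oasl1, Rsad2 and Ifi27l2a. In mature neutrophil-like cells it held for 8 of 31, beside 5.59% of genes, Isg15, Ifit1, Ifit3, Rsad2, Ifi27l2a, Rtp4, Ly6e and Ifi207. In monocyte-like cells it held for 4 of 28, Oasl1, Rsad2, Ifi27l2a and Ly6e, beside 5.07%. Mature neutrophil-like cells formed 2 clusters, and the one led by Asprv1, Sirpb1b and Il1b had a higher sum, 11266 CPM in library 1 and 7297 CPM in library 2, than the one led by Retnlg, Mmp8 and Prok2, with 7191 CPM in library 1 and 4188 CPM in library 2.

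Of the ligands, 13 interferon genes were looked up and found, and only Ifnb1, the single interferon beta gene, had enough UMIs to be ranked. Ifnb1 was among the 10 leading genes of the macrophage-like cluster, which was formed without it. In library 1 these cells had 663 Ifnb1 UMIs, 685 CPM (634 to 739), and 48 of 122 cells, 39.3% (30.6 to 48.6), had at least 1. In library 2 they had 136 UMIs, 109 CPM (91.6 to 129), in 9 of 185 cells, 4.86% (2.25 to 9.03). They held 84.8% of the Ifnb1 UMIs of all cells of library 1 and 91.9% of those of library 2. In osteoblast-like cells 7 of 804 cells had an Ifnb1 UMI in library 1, 0.871%, and 0 of 602 in library 2. A count of 0 set to 3 cells with a UMI gives a limit of 0.498% there, and the Clopper-Pearson upper limit was 0.611%. Median depths of these cells were 7303 UMIs in library 1 and 6931.5 in library 2. Those of macrophage-like cells were 7998.5 in library 1 and 5845 in library 2. Within macrophage-like cells the UMIs were uneven, since the cell with most held 21.6% of them in library 1 and 44.9% in library 2. Without that cell the levels were 541 CPM in library 1 and 60.7 CPM in library 2. With the top 10% of doublet scores removed in place of 5%, Ifnb1 stood at 794 CPM in library 1 and 21.6 CPM in library 2, and Rsad2 in macrophage-like cells at 8167 CPM in library 1 and 271 CPM in library 2.

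Macrophage-like cells with an Ifnb1 UMI also had more of the set. Those 48 cells of library 1 had a summed level of 48088 CPM, against 23120 CPM in the 74 without one. In library 2 the 9 cells had 27666 CPM, against 7273 CPM in the 176 without one. Rsad2 had 11890 CPM in the cells with Ifnb1 and 3814 CPM in those without in library 1, and 5993 CPM with and 338 CPM without in library 2. Stat2 had 156 CPM with and 150 CPM without in library 1, and 73.6 CPM with and 59.5 CPM without in library 2. Ly6e did not follow, with 1414 CPM with and 1457 CPM without in library 1, and 648 CPM with and 1147 CPM without in library 2. Irf7 had 610 CPM with and 503 CPM without in library 1, and 221 CPM with and 260 CPM without in library 2. The cells with Ifnb1 were deeper, with a median of 9889.5 UMIs against 6658 without it in library 1. In library 2 the medians were 7101 with it and 5669.5 without it. The parts of depth and of remaining doublets in finding an Ifnb1 UMI were not tested.

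**Figure D5:**
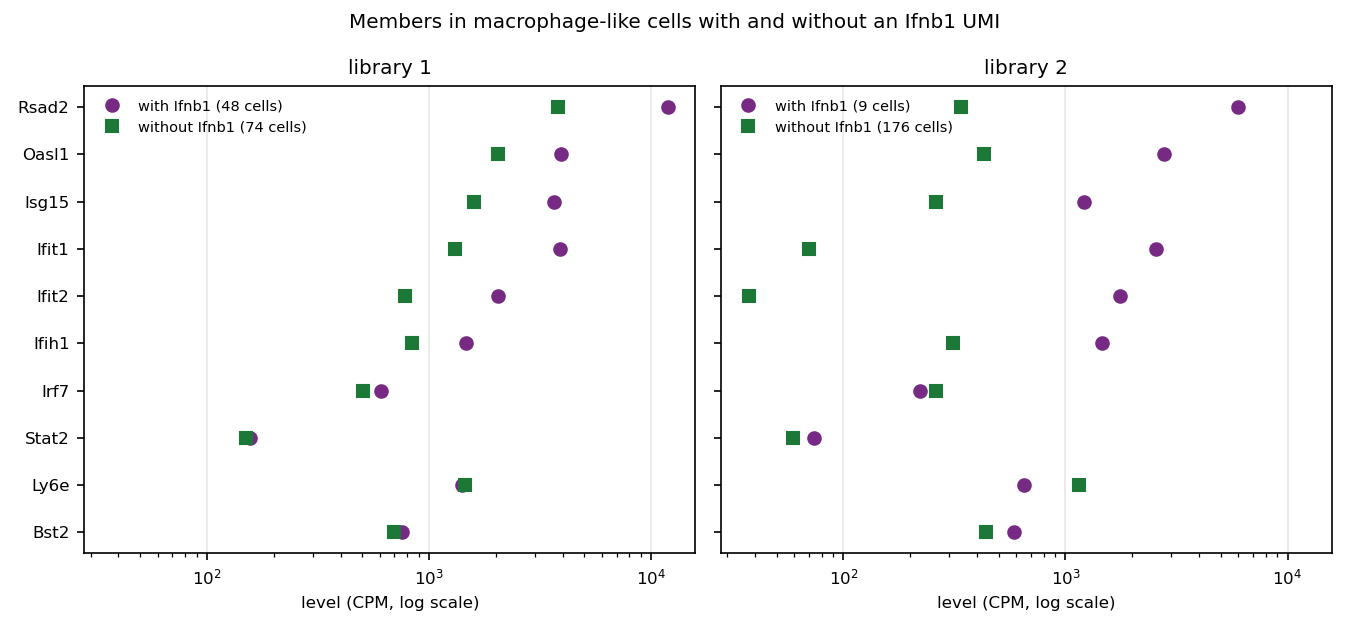
Levels of 10 members in macrophage-like cells with (circles) and without (squares) an Ifnb1 UMI, as CPM on a log scale, in library 1 (left; 48 and 74 cells) and library 2 (right; 9 and 176 cells). Rsad2 lies at 11890 with and 3814 without Ifnb1 in library 1, and at 5993 with and 338 without in library 2, while Stat2 and Bst2 lie close together in library 1.

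The receptor genes were not skewed to macrophage-like cells. Ifnar1 had 64.0 CPM in macrophage-like cells and 287 CPM in plasmacytoid dendritic cell-like cells of library 1, and 66.7 CPM in macrophage-like and 277 CPM in plasmacytoid dendritic cell-like cells of library 2. Ifnar2 had 170 CPM in macrophage-like cells of library 1 and 166 CPM in those of library 2, and 45.4 CPM in osteoblast-like cells of library 1 and 48.8 CPM in those of library 2. Of the 11 receptor and pathway genes, 1 was at least 2-fold higher in library 1 over all cells, beside 4.85% of all measured genes. Jak1, the receptor kinase with the most UMIs of that list, had 377 CPM in library 1 and 383 CPM in library 2. Ptpn11, a phosphatase gene, was the only one with a 2-fold lead over the remaining classes in each library, in megakaryocyte-like cells at 680 CPM in library 1 and 654 CPM in library 2. Of all measured genes, 11.4% had such a lead.

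Of 15 measured upstream sensors and adaptors, 2 were at least 2-fold higher in library 1 over all cells, beside 4.85% of all measured genes. Ticam1, the TLR3 and TLR4 adaptor TRIF, was the 1 gene of that list with a 2-fold lead over the remaining classes in each library. It had 53.7 CPM in macrophage-like cells of library 1 and 51.4 CPM in those of library 2. Samhd1, a nucleotide hydrolase with the most UMIs of the list, had 203 CPM in library 1 and 140 CPM in library 2. Of 48 other interferon-stimulated genes, 15 were at least 2-fold higher in library 1 over all cells (4.85% of all genes), and 35 of the 46 measured in macrophage-like cells (5.14%). Ifitm3, an endosomal antiviral protein with the most UMIs of the list, had 992 CPM in library 1 and 1094 CPM in library 2. Of 14 genes of the interferon-gamma GTPases and receptors, 3 were at least 2-fold higher in library 1 over all cells (4.85% of all genes) and 10 of 12 in macrophage-like cells (5.14%). Irgm1, a GTPase of the defence against intracellular microbes, had 318 CPM in library 1 and 179 CPM in library 2.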

How the data were processed

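GEXSCOPE single-cell RNA libraries of pooled alveolar bone were read from unfiltered matrices of UMI counts per gene and barcode, deposited by the authors as raw counts. The submitters' processing notes name FastQC 0.11.9, GRCh38 and mm10 without a role, while aligner, counter and gene models were not given in the sources used here. Features without a symbol (0.602% of UMIs in library 1, 0.431% in library 2) were left out.

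A barcode was a cell at the larger of 500 UMIs and the inflection of the rank curve (782 UMIs in library 1, 951 in library 2), with at least 200 genes and at most 20% mitochondrial UMIs. Scrublet's own threshold marked 0 cells in library 1 and 1 in library 2 and so had not worked, and the 5% with the highest scores were removed (498 in library 1, 622 in library 2), so doublets may remain. Both libraries were clustered together with scanpy 1.11.5 (2000 variable genes, 30 components, 15 neighbours, Leiden resolution 1.0), without the 35 members and 5 related lists. Clusters took names from 28 marker lists when at least 3 markers held by no other list, and 50% of all its markers, stood at least 3-fold over other cells. The requirement that markers be held by no other list was set after the clusters had been seen. UMIs were summed per class and divided by the class total. A member counted as measured at 20 UMIs, in some class of each library for ranks, and at a mean of 20 over the 2 libraries for ratios. A class was ranked at 30 cells, and a count of 0 was set to 3 UMIs in ratios. Calls were at least 2-fold. The statistics were tested on simulated data.

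Named with class values were members at least 2-fold above the next class in both libraries, members without a shared highest class and, per role, the member with the most UMIs, and other members were added after their values were seen. Of the related lists, genes with a 2-fold lead over the remaining classes and those with the most UMIs were named, and Ifnar1 and Ifnar2 were added. The members and lists were chosen with earlier results of these data known. Alternatives covered cell calls, doublets, clustering, thinning and paralogs.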

Additional observations from a re-analysis of the deposited data

How the results depend on the processing

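No paired analysis was possible because the labels put the 2 libraries in no group and give no replicate numbers. No library could be left out, since each stands alone beside the other. Of the results a comparison leads with, 74 values under alternatives stayed close to the reported ones and 25 moved. The summed level of macrophage-like cells moved in library 1 to 26951 CPM with a limit of 500 UMIs per cell, 34739 with 2000, 32788 with at most 10% mitochondrial UMIs, 30670 with no doublets removed, 36536 with 10% removed, 34595 with separate clustering, 32371 with cells weighted equally, 32753 without Ly6e and 25381 without paralogs. In library 2 it moved to 7532 CPM with 500 UMIs, 8004 with 10% mitochondrial UMIs, 7967 with no doublets removed, 7529 with 10% removed, 7266 without Ly6e and 6155 without paralogs. Members with a shared highest class numbered 12 of 35 at resolution 2.0, and those with a 2-fold lead over the remaining classes numbered 3 with 2000 UMIs, 3 at resolution 2.0 and 3 with separate clustering. Shares of macrophage-like cells with at least 5 members were 99.0% in library 1 and 79.0% in library 2 when thinned to 2000 UMIs, and 96.7% and 89.7% unthinned. Members with a variance over mean of at least 1.5 at 2000 UMIs numbered 13 of 22 in macrophage-like (21.8% of genes), 14 of 31 in mature neutrophil-like (10.2%) and 16 of 32 in monocyte-like cells (8.59%). In endothelial cell-like cells 1 cell held 11.5% of the member UMIs of the class in library 1 and 2.08% in library 2. The log2 summed ratio of library 1 over library 2 changed sign in this class with cells weighted equally, at -0.10, where the cause was not tested. It also did so in plasmacytoid dendritic cell-like cells with separate clustering, at -0.034, where the library 1 class also held 129 cells of the joint stem and progenitor-like class. It ranged from 1.84 to 2.28 in macrophage-like cells over all alternatives. Chosen after seeing the data, leaving out macrophage-like cells gave 19 of 35 members at least 2-fold higher in library 1, centring on the median gene gave 20, and leaving out shared barcodes gave 22. Apart from the variance over mean, the share of all genes was not counted under these alternatives. Of 72 gene levels, 51 stayed within 1.5 times under every alternative. Sparse members rest on few UMIs, such as Oas1g with 753 and Ifit3b with 718 over all cells of library 2.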

Other observations

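Cells with many members also carried related genes that are not among the members. In mature neutrophil-like cells, those with at least 5 members had 17431 CPM of the 48 other interferon-stimulated genes in library 1 and 16393 CPM in library 2, against 10334 CPM in library 1 and 10444 CPM in library 2 in cells with at most 1 member. For the 14 interferon-gamma GTPases and receptors the same cells had 1489 CPM in library 1 and 731 CPM in library 2, against 672 CPM in library 1 and 384 CPM in library 2. The mature neutrophil-like class joined 2 clusters with different summed levels, and their part in these gaps was not tested. In endothelial cell-like cells the gamma list stood at 3899 CPM in library 1 and 4679 CPM in library 2 with at least 5 members, against 1114 CPM in library 1 and 1598 CPM in library 2 in cells with at most 1.

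Of 48 other interferon-stimulated genes, 4 had a 2-fold lead over the remaining classes in each library, beside 11.4% of all measured genes. Slfn4, a myeloid Schlafen gene, had 4466 CPM in mature neutrophil-like cells of library 1 and 4038 CPM in those of library 2. Ifitm1, of the interferon-induced transmembrane proteins, had 2683 CPM in basophil or mast cell-like cells of library 1 and 2316 CPM in those of library 2. Ube2l6, the conjugating enzyme of ISG15, had 373 CPM in erythroid cell-like cells of library 1 and 579 CPM in those of library 2, and Uba7, its activating enzyme, had 200 CPM in megakaryocyte-like cells of library 1 and 176 CPM in those of library 2.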
